A study of Mus musculus with 6 samples.

Results

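The immediate early genes *Fos*, *Fosb*, *Jun*, *Junb*, *Egr1*, *Egr3*, *Atf3*, *Ier2*, *Dusp1* and *Nr4a1* were followed in RNA from mouse aorta with and without miRNA-26b. They were chosen by name, as genes known to be sensitive to dissection, and found by their symbol in the table of read counts per gene. All 10 were among its 55341 genes, and all 10 passed the filter on low counts that left 16017 genes for testing. A second list of 54 other immediate early genes, of which 52 passed the filter, is given beside them.

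Immediate early genes are transcribed within minutes of a stimulus by factors that are already present in the cell, so that no new protein has to be made first. Serum response factor acts on CArG boxes together with ETS factors, and CREB acts on cyclic AMP response elements. Many of the products are transcription factors themselves: FOS and JUN proteins pair to form AP-1, and EGR proteins and the orphan receptor NR4A1 act through sites of their own. Their transcripts are short-lived. In vessels they are known to respond to growth factors, shear stress and injury, and also to the removal and handling of the tissue.

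One library each was made from 3 miRNA-26b-/- mice (M2626, M2627 and M2628) and 3 miRNA-26b+/+ mice (M2629, M2630 and M2631), all 8 weeks old, on chow diet and labelled C57BL/6NCrl. The knockout was made in R1/E embryonic stem cells of 129/Sv origin by flanking miRNA-26b, in an intron of *Ctdsp1*, with loxP sites, and the region was then removed with a tamoxifen-inducible CreERT2, which was bred out again. The methods describe 1 protocol for all mice: deep ketamine and xylazine anaesthesia, blood collection, perfusion with PBS, RNAlater and snap freezing. The time from death to freezing, the day and the order of dissection are not given in the sources used here. The labels call the material endothelial cells, whereas the study's methods name the whole aortic arch and thoracic aorta. Levels are given in CPM, the counts of a gene per 1000000 counts of its normalized library. The summed level of 9 smooth muscle markers was 32914 to 44005 CPM and that of 10 endothelial markers 508 to 1784 CPM, sums that are not scaled by gene length. The libraries held 25706728 to 33345037 counts assigned to genes. Libraries differed in the markers of other cell types, both within and between genotypes. M2626 and M2627 were the 2 lowest for 6 of 10 endothelial and 7 of 8 macrophage markers, and M2627 and M2630 were the 2 highest for all 7 cardiac muscle markers tested. Because the tissue was sequenced in bulk, fewer cells of a type and less RNA per cell cannot be told apart.

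The sequences below show part of what the knockout removes and what the promoters of these genes hold. The study reports that the mice lack both miRNA-26b-3p and miRNA-26b-5p. Only miRNA-26b-5p is shown here, and sites of miRNA-26b-3p were not searched. Mature miRNA-26b-5p lies on the forward strand at chr1:74394324-74394344 in GRCm38.p6 and shares its seed, bases 2 to 8 in capitals, with miRNA-26a-5p at chr9:119031811-119031832, also on the forward strand. Both were taken from RefSeq.
miR-26b-5p: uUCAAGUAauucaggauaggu
miR-26a-5p: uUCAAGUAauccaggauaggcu
The match to this seed, TACTTGA, was searched on the transcribed strand of the longest annotated 3′ UTR of each gene. It was found in 0 of the 10 immediate early genes, whose 3′ UTRs ran from 485 bases (*Junb*) to 2645 bases (*Egr3*). It was found in 1586 of the 13541 tested genes with a 3′ UTR, which is 11.7%, and in 9 of the 54 other immediate early genes. No match says only that these letters are not in these 3′ UTRs.

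Promoter windows from 250 bases before to 50 bases after the start were given by RefSeq (GRCm38.p6) for 7 of the 10 genes: *Fos*, *Fosb*, *Jun*, *Junb*, *Atf3*, *Dusp1* and *Nr4a1*. The core TGACG of the cyclic AMP response element, on either strand, stood in 6 of these 7, all but *Jun*, and in 20.8% of all 32851 windows. The whole element TGACGTCA, which contains that core, stood in *Dusp1* and in 1.79% of all windows. One stretch of 30 bases is shown for each of the 6 genes because they share these letters, in capitals, on the strand of the gene; CGTCA is the core read from the other strand.
*Fos*, forward strand, chr12:85473812-85473841: agttccgcccagTGACGtaggaagtccatc
*Fosb*, reverse strand, chr7:19310088-19310117: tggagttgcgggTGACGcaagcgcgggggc
*Junb*, reverse strand, chr8:84978837-84978866: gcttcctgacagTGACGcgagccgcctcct
*Atf3*, reverse strand, chr1:191183323-191183352: ttaatagcattaCGTCAgcctgggattggt
*Dusp1*, reverse strand, chr17:26508597-26508626: ggtagggcgggTGACGTCAccgcccggtca
*Nr4a1*, forward strand, chr15:101266794-101266823: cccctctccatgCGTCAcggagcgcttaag
The core shown for *Fos* began 66 bases before the start, and *Fos* held another at 129 bases. The element shown for *Dusp1* began 143 bases before the start, and *Dusp1* held another core at 191 bases. *Nr4a1* held the core at 4 places, each on the other strand. A CArG box was in 0 of the 7 windows and in 1.63% of all windows, the AP-1 site TGANTCA in 0 and in 7.81%, and the EGR site GCGTGGGCG in 0 and in 0.612%. The TATA box TATAAA was in *Fos* and *Junb* and in 13.6% of all windows, and the ETS site CCGGAA in *Nr4a1* and in 14.9%. The letters TATAAA began 33 bases before the start in *Fos*, but at the start given by RefSeq itself in *Junb*. A match of letters in a window is not evidence of binding. No match says nothing of sites farther from the start than the window, where CArG boxes were not searched. *Egr1*, *Egr3* and *Ier2* had no window and were not searched.

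Levels of different genes were compared per length, as CPM divided by the counted exon length in kilobases (RPKM), averaged over the 6 libraries. *Dusp1*, which encodes a phosphatase that inactivates MAP kinases, had the highest mean level at 94.4 RPKM, followed by *Jun* at 74.4, *Fos* at 58.9 and *Egr1* at 55.3 RPKM. *Atf3* had 43.1, *Nr4a1* 39.9, *Ier2* 30.8 and *Junb* 22.3 RPKM. *Fosb* at 7.82 and *Egr3* at 2.15 RPKM were the lowest. The first 8 in this order overlapped with their neighbours in single libraries, whereas every *Fosb* value, 4.78 to 11.4 RPKM, lay above every *Egr3* value, 0.968 to 3.90 RPKM. The lowest library of *Junb*, at 11.5 RPKM, was just above the highest of *Fosb*.

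**Figure D1:**
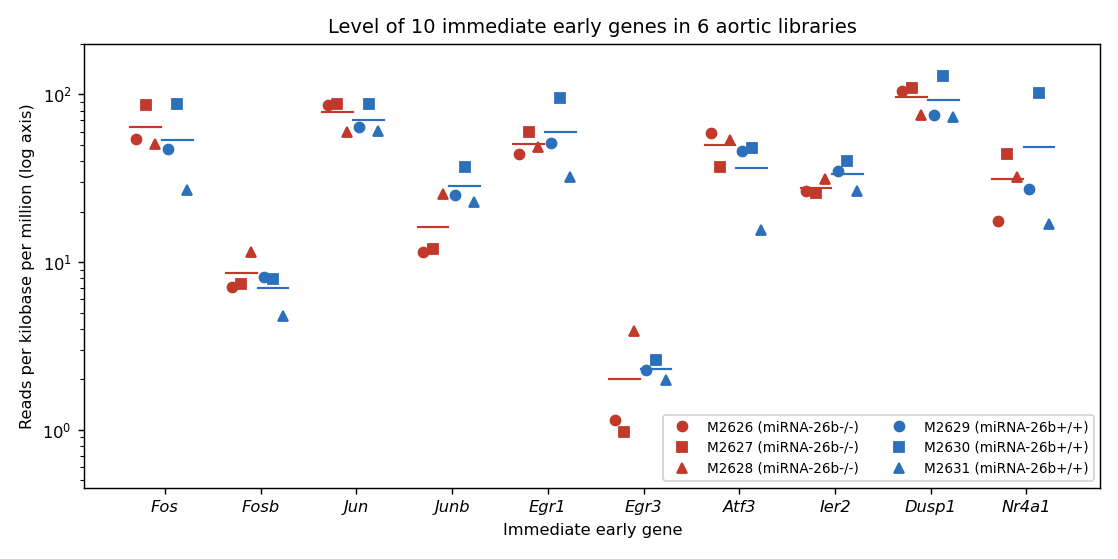
Level of the 10 immediate early genes in RPKM (log axis) in each of the 6 libraries; red points are miRNA-26b-/-, blue points miRNA-26b+/+, and lines the mean of each group. The red and blue points of each gene overlap, and the spread of *Nr4a1*, from 16.9 to 102 RPKM, is wider than that of *Jun*, from 59.5 to 88.1 RPKM.

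To see whether loss of miRNA-26b was accompanied by a change of the immediate early genes, the 3 miRNA-26b-/- libraries were compared with the 3 miRNA-26b+/+ libraries. None of the 10 genes passed an adjusted p of 0.05 with the edgeR quasi-likelihood test. *Junb*, which encodes a JUN family subunit of AP-1, had the smallest p, with a mean of 65.3 ± 17.6 CPM in the 3 miRNA-26b+/+ mice and of 37.4 ± 18.0 CPM in the 3 miRNA-26b-/- mice (SD). The log2 fold changes ran from -0.80 for *Junb* to 0.44 for *Atf3*, 5 above and 5 below 0, and their median was -0.075, against 0.013 over all genes tested. At an unadjusted p under 0.05 with the edgeR quasi-likelihood test, 1 of the 10 genes was called, against 6.47% of all genes tested (3.07% lower and 3.4% higher in miRNA-26b-/-). Adjusted p-values from this test, by Benjamini-Hochberg over all genes, ran from 0.736 for *Junb* to 0.987 for *Dusp1*. Over all genes 1 passed, or 0.00624%. The groups overlapped for each of the 10 genes. Over all genes tested they did not overlap for 11.5%, and 10 genes are too few to tell their share from this one. A permutation test of 3 against 3 libraries cannot give a p below 0.1, and the exact values, two-sided on log2 CPM, ran from 0.2 for *Ier2* to 0.9 for *Jun*, *Dusp1* and *Nr4a1*.

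**Figure D2:**
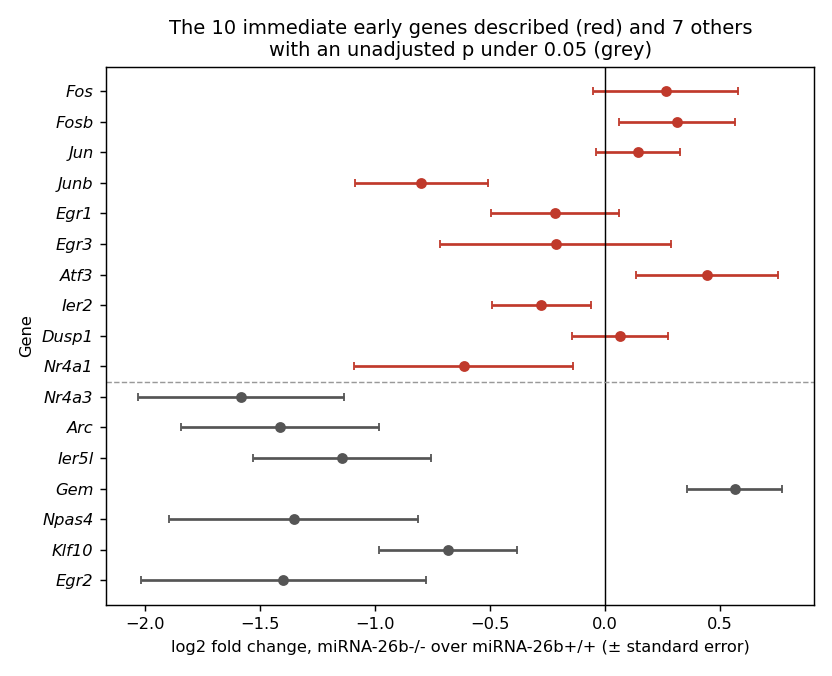
Log2 fold change of miRNA-26b-/- over miRNA-26b+/+ with its standard error (bars) for the 10 immediate early genes in red and, in grey, the 7 other immediate early genes with an unadjusted p under 0.05. *Junb* at -0.80 is the only red point called at that threshold, and 6 of the 7 grey points lie below 0.

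Among the AP-1 subunits, *Fos*, which encodes the partner of JUN (chromosome 12 of GRCm38, 85473890 to 85477273, forward strand), measured 128, 205 and 119 CPM in M2626, M2627 and M2628 and 111, 205 and 63.1 CPM in M2629, M2630 and M2631. M2627 and M2630, 1 of each genotype, were nearly equal at the top, and M2631 lay alone at the bottom. The log2 fold change of *Fos* was 0.26 ± 0.32 (SE, edgeR adjusted p = 0.935). Leaving out M2630 gave 0.80 with an unadjusted p of 0.0161 and an adjusted p of 0.948 with edgeR, and leaving out M2627 or M2631 turned its sign, to -0.033 and -0.073.

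*Fosb*, a FOS relative known to be induced by the same signals (chromosome 7, 19302696 to 19310051, reverse strand), had 44.3, 46.5 and 71.4 CPM in M2626 to M2628 and 51.1, 49.7 and 29.8 CPM in M2629 to M2631. Its highest library was M2628 and its lowest M2631, so that it did not share the peak of *Fos* in M2627 and M2630. The ratio of *Fos* to *Fosb* per length was 7.65, 11.7 and 4.41 in the miRNA-26b-/- and 5.79, 10.95 and 5.62 in the miRNA-26b+/+ libraries (exact permutation test, two-sided, p = 0.9). This ratio was again highest in M2627 and M2630. The log2 fold change of *Fosb* was 0.31 ± 0.25 (SE, edgeR adjusted p = 0.887).

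*Jun* (chromosome 4, 95049034 to 95052222, reverse strand) gave 276, 281 and 189.8 CPM in M2626 to M2628 and 204, 279.8 and 193 CPM in M2629 to M2631. The libraries fell at 2 levels, with M2626, M2627 and M2630 between 276 and 281 CPM and the other 3 between 189.8 and 204 CPM, and each level held both genotypes. Its log2 fold change was 0.14 ± 0.18 (SE, edgeR adjusted p = 0.941). *Jun* shares 232 of its 3189 exon bases with the antisense gene *Junos*, and the reads were counted without strand.

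*Junb* (chromosome 8, 84974484 to 84978718, reverse strand) measured 26.4, 27.7 and 58.3 CPM in M2626, M2627 and M2628 and 58.0, 85.3 and 52.5 CPM in M2629, M2630 and M2631. M2626 and M2627 lay well below the other 4 libraries, and M2628 was level with the miRNA-26b+/+ libraries. It had a log2 fold change of -0.80 ± 0.29 (SE), with an unadjusted p of 0.0145 and an adjusted p of 0.736 by the edgeR quasi-likelihood test. Leaving out M2628 gave -1.26 with an adjusted p of 0.0319 in edgeR, the only setting in which 1 of the 10 genes passed. Over the alternatives its adjusted p in edgeR, DESeq2 and limma ran from 0.0319 to 0.9996. Without M2626, M2627 or M2630 it no longer passed an unadjusted threshold of 0.05 (log2 fold changes -0.62, -0.61 and -0.56), nor without M2627 and M2630 together (-0.37). *Junb* shares 173 of its 2301 exon bases with *Prdx2* on the opposite strand.

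Per length, the ratio of *Jun* to *Junb* was 7.54 in M2626 and 7.32 in M2627, but 2.35 in M2628 and 2.54, 2.37 and 2.66 in M2629, M2630 and M2631. The 4 libraries other than M2626 and M2627 lay within a narrow range, and the genotypes overlapped (exact permutation test, two-sided, p = 0.4).

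*Atf3*, a stress-induced member of the ATF family that can pair with JUN proteins (chromosome 1, 191170296 to 191218039, reverse strand), had 127, 79.4 and 114 CPM in M2626 to M2628 and 99.2, 103 and 33.4 CPM in M2629 to M2631. A single library, M2631, set the wide range, and the other 5 lay between 79.4 and 127 CPM. The log2 fold change of *Atf3* was 0.44 ± 0.31 (SE, edgeR adjusted p = 0.858), and it was 0.066 without M2631.

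Of the zinc finger factors, *Egr1* gave 198, 269 and 218 CPM in M2626 to M2628 and 230.3, 427 and 144 CPM in M2629 to M2631. The miRNA-26b+/+ libraries held both the highest and the lowest value, and the 3 miRNA-26b-/- libraries lay between them. Its log2 fold change was -0.22 ± 0.28 (SE, edgeR adjusted p = 0.941). Without M2630 it was 0.30, and without M2631 it was -0.53 with an unadjusted p of 0.0454 and an adjusted p of 0.983 in edgeR.

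*Egr3*, a related factor (chromosome 14, 70077203 to 70082614, forward strand), was at the lowest level of the 10, with 128, 143 and 484 counts in M2626 to M2628 and 308, 317 and 264 counts in M2629 to M2631. These were 5.002, 4.26 and 17.2 CPM and 10.1, 11.6 and 8.74 CPM. As for *Junb*, M2626 and M2627 were lowest, but here M2628 was the highest library, so that the miRNA-26b-/- libraries lay on both sides of the miRNA-26b+/+ group. Its log2 fold change was -0.21 ± 0.50 (SE, edgeR adjusted p = 0.976). It was -1.13 without M2628 and 0.17 without M2627. The ratio of *Egr1* to *Egr3* per length was 39.0, 62.0 and 12.5 in the miRNA-26b-/- and 22.5, 36.4 and 16.1 in the miRNA-26b+/+ libraries (exact permutation test, two-sided, p = 0.7).

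*Nr4a1*, which encodes the orphan nuclear receptor NUR77 (chromosome 15, 101254269 to 101274795, forward strand), had 61.5, 154 and 113 CPM in M2626 to M2628 and 95.8, 357 and 59.2 CPM in M2629 to M2631. M2630 was far above the other 5 libraries, and the lowest libraries of the 2 genotypes, M2626 and M2631, were close to each other. Its log2 fold change was -0.62 ± 0.48 (SE, edgeR adjusted p = 0.880), and 0.52 without M2630.

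*Ier2*, a small nuclear protein gene induced early after stimulation (chromosome 8, 84661331 to 84662852, reverse strand), was the steadiest of the 10 genes relative to its level, with 40.1, 39.4 and 47.5 CPM in M2626 to M2628 and 53.0, 60.9 and 40.3 CPM in M2629 to M2631. The groups overlapped only through M2631, which lay among the miRNA-26b-/- libraries. The change on the log2 scale was -0.28 ± 0.21 (SE, edgeR adjusted p = 0.877).

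*Dusp1* (chromosome 17, 26505590 to 26562128, reverse strand) measured 349, 360.0 and 248 CPM in M2626 to M2628 and 249, 425 and 243 CPM in M2629 to M2631. Its order of libraries was close to that of *Jun*: M2626, M2627 and M2630 were high in both genotypes and the other 3 lay between 243 and 249 CPM. A log2 fold change of 0.065 ± 0.21 was found (SE, edgeR adjusted p = 0.987). Only 11 of its 3311 exon bases are shared with *Ergic1* on the opposite strand.

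The spread between mice of one genotype was described next. The SD of log2(CPM + 0.5) within groups, pooled over both, had a median of 0.548 over the 10 genes, against 0.398 over all genes tested and 0.392 over the 52 other immediate early genes tested. It was widest for *Nr4a1* at 1.06 and narrowest for *Ier2* at 0.236. The SD of a single group was larger in miRNA-26b+/+ for *Nr4a1* (1.34 against 0.67), *Fos* (0.85 against 0.43), *Atf3* (0.91 against 0.36) and *Egr1* (0.79 against 0.22). The same held for *Fosb*, *Dusp1* and *Ier2*. In miRNA-26b-/- it was larger for *Egr3* (1.04 against 0.19), *Junb* (0.63 against 0.37) and *Jun* (0.32 against 0.29). Without M2628 the median of the 10 genes was 0.364 and that of all genes 0.345. The highest library was at least 2 times the lowest for 7 of the 10 genes, with the ratio reaching 6.03 for *Nr4a1*, 4.03 for *Egr3* and 3.81 for *Atf3*. A ratio of at least 2 was found in 55.7% of all genes tested.

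Because spread depends on the level, the biological coefficient of variation (BCV) estimated by edgeR was set against its trend at the same level. The BCV was above the trend for 9 of the 10 genes, all but *Ier2*, and for 33.1% of all genes tested. It was above 1.5 times the trend for *Nr4a1* (BCV 0.464, 2.54 times the trend), *Fos* (0.315, 1.72 times), *Atf3* (0.311, 1.63 times) and *Egr1* (0.280, 1.59 times), as it was for 2.18% of all genes. Only 0.162% of all genes had a ratio as high as that of *Nr4a1*. *Egr3*, although its CPM differed most after *Nr4a1*, was at 1.09 times the trend of its low level. Among the other immediate early genes 30 of 52 were above the trend and 2 above 1.5 times the trend: *Ccn1*, a matricellular protein gene, at 1.92 times, and *Btg2*, an antiproliferative gene, at 1.69 times, both named after their values were seen. A spread above the trend was not particular to immediate early genes. It was found for 9 of 10 endothelial, 8 of 8 macrophage and 7 of 7 cardiac muscle markers tested, but for 1 of 9 smooth muscle markers. Above 1.5 times the trend were 4 endothelial, 3 macrophage, 7 cardiac muscle and 0 smooth muscle markers.

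**Figure D3:**
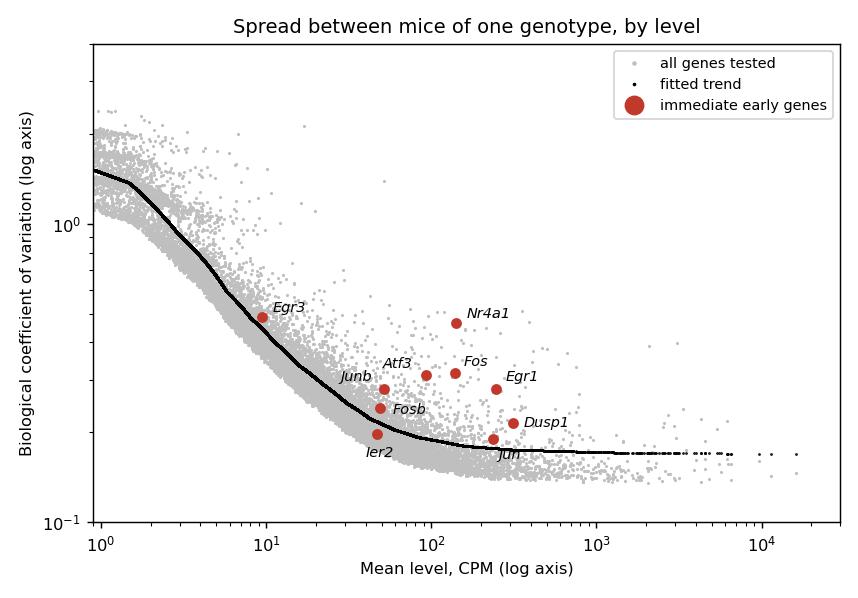
Biological coefficient of variation against mean level in CPM (both log axes) for all genes tested (grey), the fitted trend (black) and the 10 immediate early genes (red). *Nr4a1*, *Fos*, *Atf3* and *Egr1* lie more than 1.5 times above the trend and *Ier2*, at 0.912 times, is the only red point below it.

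The order of the libraries was compared between the genes. After each gene was centred on its own mean, the mean of the 10 genes was 0.59 on the log2 scale in M2630 and -0.53 in M2631, both miRNA-26b+/+. The 3 miRNA-26b-/- libraries, at -0.20, -0.02 and 0.15, and M2629, at 0.01, lay between them. M2630 was the highest library for 6 of the 10 genes, against 13.6% of all genes tested, and was above the mean for all 10. M2631 was the lowest library for 6 of the 10 genes, against 15.6% of all genes. Both libraries were picked after the values were seen, so these shares are a description and not a test.

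The 10 genes did not follow one order. The pairs of libraries named next were also picked after the values were seen, so the shares of all genes beside them only describe. M2627 and M2630 were the 2 highest libraries for *Fos*, *Jun*, *Egr1*, *Dusp1* and *Nr4a1*, and for 7.53% of all genes. M2626 and M2627 were the 2 lowest for *Junb*, *Egr3* and *Ier2*, and for 10.4% of all genes. For *Ier2* this rests on a near tie, with 40.1 and 39.4 CPM in M2626 and M2627 and 40.3 CPM in M2631. *Fosb* and *Atf3* were in neither group and shared the lowest library, M2631. Measured as the root mean square difference of the centred log2 values over the 6 libraries, *Jun* and *Dusp1* were the closest pair at 0.103, and *Fos* and *Egr1* followed at 0.273. *Ier2* was nearest to *Fosb* at 0.337, *Junb* to *Egr3* at 0.339, and *Nr4a1* to *Egr1* at 0.445. Likeness over 6 libraries was not particular to these genes: 24 other genes were nearer to *Jun* than *Dusp1* was, and 67 were nearer to *Fos* than *Egr1* was. By the same measure the 5 genes most like the mean profile of the 10 were *Il15* (0.0915), *Amz1* (0.103), *AC161119.1* (0.112), *Gm49322* (0.120) and *Uspl1* (0.12496). *Il15* was at a low level, 1.49 to 4.45 CPM. The 10 genes themselves lay from 0.192 (*Egr1*) to 0.597 (*Egr3*) from that mean profile.

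**Figure D4:**
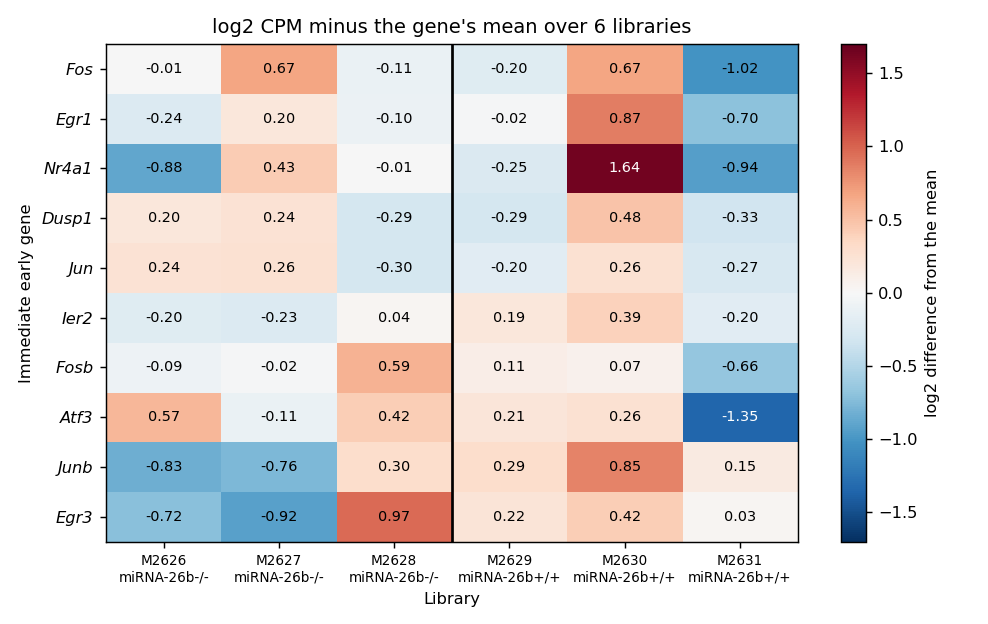
Log2 CPM of each immediate early gene minus its mean over the 6 libraries, by library, with the genotypes separated by the vertical line; red is above and blue below the mean. The M2630 column is above the mean in all 10 rows, up to 1.64 for *Nr4a1*, whereas M2626 and M2627 are lowest in the rows of *Junb* and *Egr3*.

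Markers of cell types moved with both orders. The summed level of the 10 endothelial markers was 508, 537 and 1784 CPM in M2626 to M2628 and 1257, 1725 and 1507 CPM in M2629 to M2631, so that M2626 and M2627 were lowest, as for *Junb* and *Egr3*. The 8 macrophage markers summed to 196, 242 and 634 CPM and to 361, 424 and 412 CPM, with the same 2 libraries lowest. None of these 18 markers was at 0 in any library; *Pecam1* ranged from 175 to 716 CPM, *Cdh5* from 46.2 to 120.0 CPM, *Cd68* from 4.11 to 26.7 CPM and *Adgre1* from 5.63 to 38.7 CPM. M2626 and M2627 were also the 2 lowest for 5 of 8 fibroblast markers, but for 1 of 9 smooth muscle and 0 of 8 adipocyte markers. The part of endothelial cells, macrophages and fibroblasts in the levels of *Junb*, *Egr3* and *Ier2* was not tested.

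The 8 cardiac muscle markers summed to 29.2, 386 and 19.2 CPM in the miRNA-26b-/- and to 76.9, 328 and 35.0 CPM in the miRNA-26b+/+ libraries. M2627 and M2630 were thus high, as they were for *Fos*, *Jun*, *Egr1*, *Dusp1* and *Nr4a1*. For *Jun* and *Dusp1*, M2626 was high as well, at 276 and 349 CPM, although its cardiac muscle sum was 29.2 CPM. *Myl7* ranged from 0 CPM in M2628 to 33.9 CPM in M2627, and *Nppa* was at 0 in all libraries but M2630. The same 2 libraries were the 2 highest for 7 of 8 adipocyte markers, which summed to 1419, 3015 and 957 CPM and to 1406, 2036 and 725 CPM; *Adipoq* ranged from 55.5 to 180.4 CPM and *Plin1* from 52.1 to 182 CPM. They were also the 2 highest for 5 of 9 sympathetic neuron markers tested, which summed to 101, 419.8 and 74.4 CPM and to 111, 162 and 117 CPM, with *Th* and *Dbh* at 0 in the other 4 libraries. The part of these tissues in the levels of the immediate early genes was not tested. The sum of the Schwann cell markers went with the genotype instead. The 8 reported here summed to 487, 468 and 356 CPM in M2626 to M2628 and to 243, 247 and 304 CPM in M2629 to M2631, so that all miRNA-26b-/- libraries were above all miRNA-26b+/+ libraries. Of 7 tested, 5 were higher in miRNA-26b-/- mice at an unadjusted p under 0.05 (edgeR), against 3.4% of all genes, and 0 passed after adjustment. The groups did not overlap for 3 of the 7, against 11.5% of all genes tested. *Pmp22* made up most of the sum, with 291, 312 and 221 CPM against 194, 189 and 213 CPM. *Gfra3* was lowest in the miRNA-26b-/- library M2628, at 0.0709 CPM. Both genes were named after their values were seen. The part of Schwann cells in the comparison of genotypes was not tested. Without M2627 and M2630 the log2 fold change was 0.18 for *Nr4a1*, 0.16 for *Egr1*, 0.50 for *Fos*, 0.23 for *Jun* and 0.28 for *Dusp1*. Leaving out M2630 alone gave 0.52 for *Nr4a1* and 0.30 for *Egr1*.

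**Figure D5:**
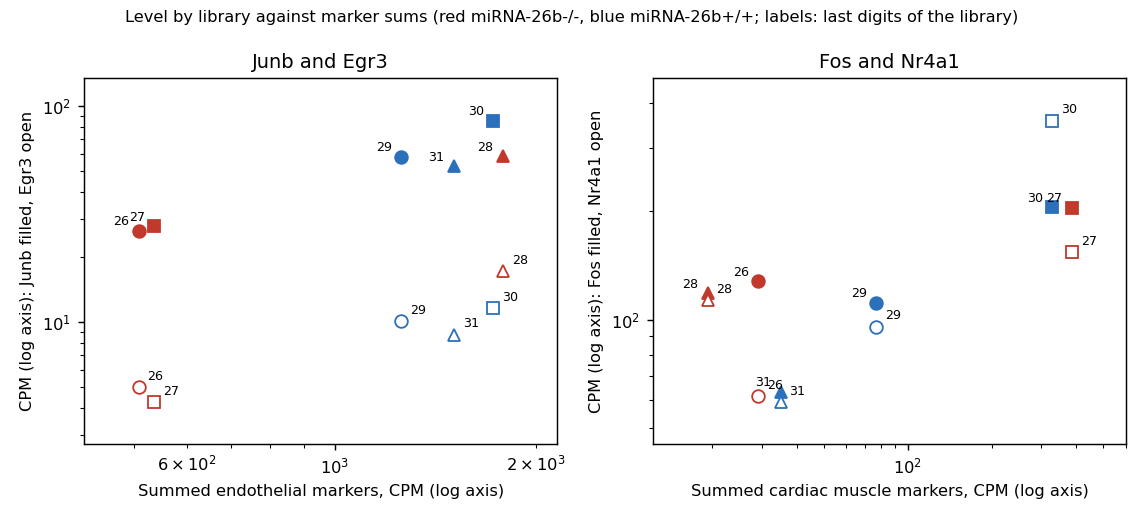
Level in CPM of *Junb* and *Egr3* against the summed endothelial markers (left) and of *Fos* and *Nr4a1* against the summed cardiac muscle markers (right) in the 6 libraries, all on log axes; red is miRNA-26b-/-, blue miRNA-26b+/+, and labels are the last digits of the library. M2626 and M2627 are low on both axes at left, and M2627 and M2630 have the highest marker sums at right, 386 and 328 CPM, and the highest levels of both genes.

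Among the 52 other immediate early genes tested, 6 were lower and 1 was higher in miRNA-26b-/- mice at an unadjusted p under 0.05 (edgeR), against 3.07% and 3.4% of all genes, and 0 passed after adjustment. Their median log2 fold change was -0.028, and 8 of the 52 had groups that did not overlap, against 11.5% of all genes tested. *Nr4a3*, a relative of *Nr4a1*, measured 1.64, 5.75 and 14.1 CPM in M2626 to M2628 and 20.7, 25.03 and 19.4 CPM in M2629 to M2631. All 3 miRNA-26b-/- libraries were below all miRNA-26b+/+ libraries, unlike for *Nr4a1*, and the log2 fold change was -1.58 ± 0.45 (SE, edgeR adjusted p = 0.731).

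*Arc*, which encodes a protein known from activated neurons, had 4.34, 9.45 and 3.55 CPM against 19.3, 16.9 and 11.8 CPM, a log2 fold change of -1.41 ± 0.43 (SE, edgeR adjusted p = 0.734). *Ier5l* had 8.64, 6.83 and 6.38 CPM against 21.1, 11.4 and 15.0 CPM (-1.14 ± 0.39, SE, edgeR adjusted p = 0.736). *Gem*, a small GTPase gene and the only one of the 7 that was higher, had 107, 109 and 119.8 CPM against 77.7, 98.4 and 51.8 CPM (0.56 ± 0.21, SE, edgeR adjusted p = 0.736). For each of these 3 genes the groups did not overlap. The other 3 below 0.05 were *Npas4* (log2 fold change -1.35), *Egr2* (-1.40), a close relative of *Egr3*, and *Klf10* (-0.68), named after their values were seen. Without M2627 and M2630, 2 were lower and 4 higher in place of 6 and 1. In 13 of the 52 genes M2626 and M2627 were the 2 lowest libraries, in 25 M2630 was the highest, and in 17 M2631 was the lowest.

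The kinases and factors upstream of the immediate early genes were then examined. Of 31 tested, 2 were higher and 0 lower in miRNA-26b-/- mice at an unadjusted p under 0.05 (edgeR), against 3.4% and 3.07% of all genes, 0 passed after adjustment, and the median log2 fold change was 0.046. The 2 were *Map2k4*, a kinase of the JNK pathway, with 61.5, 66.7 and 44.7 CPM against 45.0, 32.2 and 37.9 CPM (0.59), and *Hras*, a RAS GTPase, with 59.7, 41.0 and 64.1 CPM against 43.5, 32.6 and 34.0 CPM (0.57). In both, 1 miRNA-26b-/- library lay within the range of the other group. *Elk1*, an ETS partner of serum response factor, had a log2 fold change of -0.47 (edgeR adjusted p = 0.777).

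Of 16 tested of 17 genes that feed back on these signals or repress AP-1, 1 was higher and 1 lower at that threshold, against 3.4% and 3.07% of all genes, and 0 passed after adjustment. *Dusp4*, a MAP kinase phosphatase like *Dusp1*, had 1.09, 3.76 and 3.19 CPM against 6.56, 13.4 and 4.24 CPM (log2 fold change -1.50, edgeR adjusted p = 0.741). *Jdp2*, which encodes a repressor that pairs with JUN, had 29.5, 32.0 and 50.5 CPM against 29.2, 23.4 and 19.6 CPM (0.63, edgeR adjusted p = 0.741). In both genes the groups did not overlap, though *Jdp2* in M2626 and M2629 was nearly level. The groups did not overlap for 3 of the 16 genes, against 11.5% of all genes tested. *Dusp3* (-0.19) and *Spry1* (-0.24) followed, with edgeR adjusted p = 0.857 and 0.931.

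Among 24 later targets of AP-1 and EGR1, all tested, 0 had an unadjusted p under 0.05 in edgeR, against 6.47% of all genes tested. So 0 passed after adjustment, and 24 genes are too few to tell 0 from that share. Their median log2 fold change was -0.14, against 0.013 over all genes tested. The 4 with the smallest p were *Icam1*, a leukocyte adhesion molecule gene (-0.56), *Cd44* (-0.33), the matrix protease gene *Mmp3* (-0.44) and the growth factor gene *Pdgfa* (0.23). M2626 and M2627 were the 2 lowest libraries for 7 of the 24, and M2627 and M2630 the 2 highest for 0.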

How the data were processed

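The authors deposited raw read counts per gene: STAR alignment to GRCm38 (mm10), then featureCounts 1.6.4 over the exons of each gene name with GENCODE release M21, per the file headers, unstranded, a read over more than one gene counting for each. A second table of part of the genes, with the authors' log2 CPM, fold changes and p-values, was not used. Genes were kept where 2 or more libraries exceeded 1 CPM and all counts summed to 2 or more, normalized by TMM and tested with edgeR 4.0.16 (quasi-likelihood, prior count 0.125) in R 4.3.3. CPM are scaled by TMM-adjusted library sizes. Standard errors were derived from the log2 fold change and the F statistic. Alternatives used DESeq2 1.42.0, limma 3.58.1 (voom), other normalizations and filters, and each library left out; leaving out M2627 and M2630 together was chosen after seeing the data. The procedure was tested on simulated counts. The 10 genes and all lists were chosen with earlier results of these data known. Named beside them were up to 4 genes per list with the smallest unadjusted p, the first 2 markers per cell type and the 5 genes most like the mean profile. A few genes that this rule names are not reported here.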

Additional observations from a re-analysis of the deposited data

How the results depend on the processing

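No paired analysis was possible because the labels give the mice no replicate numbers that are shared between the groups. Of the 10 log2 fold changes, those of *Fosb*, *Jun*, *Junb*, *Atf3* and *Ier2* kept their sign under all 16 alternatives, though with 1 library left out they ran from 0.065 to 0.45, 0.034 to 0.33, -1.26 to -0.56, 0.066 to 0.69 and -0.44 to -0.14. Without M2627 and M2630 *Atf3* was 0.87, with an unadjusted p of 0.0372 and an adjusted p of 0.9996 in edgeR. *Fos* was -0.033 without M2627 and -0.073 without M2631 (range over libraries left out -0.073 to 0.80). *Egr1* was 0.30 without M2630 (range -0.53 to 0.30) and 0.16 without M2627 and M2630. *Egr3* was 0.027 without M2626, 0.17 without M2627 (range -1.13 to 0.17) and 0.27 without M2627 and M2630. *Dusp1* was -0.0068, -0.032, -0.064 and -0.085 without M2626, M2627, M2629 and M2631 (range -0.085 to 0.38). *Nr4a1* was 0.52 without M2630 (range -1.04 to 0.52) and 0.18 without M2627 and M2630. With 1 library left out, 0 to 3 of the 10 genes had an unadjusted p under 0.05, 0 without M2626 or M2627, 2 without M2628 (*Junb*, *Egr3*) and 3 without M2631 (*Junb*, *Egr1*, *Nr4a1*), and 0 to 1 passed after adjustment. Of all genes, 686 (without M2631) to 1692 (without M2628) had an unadjusted p under 0.05 and 0 to 82 passed after adjustment, in place of 1036 and 1; without M2627 and M2630 these were 607 and 0. DESeq2 gave 57 genes after adjustment, limma voom 3 and the earlier quasi-likelihood method of edgeR 0. Of the other immediate early genes, 6 were lower and 1 was higher; this became 3 lower with voom, 3 to 10 lower and 0 to 6 higher with 1 library left out, and 2 lower and 4 higher without M2627 and M2630. The median spread of the 10 genes, 0.548, ran from 0.364 (without M2628) to 0.628. The cause of these moves was not tested. With 3 mice a group, the call of *Junb* depends on which library is left out.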

Other observations

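Heat shock genes, another list known to respond to handling of tissue, were also examined. Of 11 tested, 6 were lower and 0 higher in miRNA-26b-/- mice at an unadjusted p under 0.05 (edgeR), against 3.07% and 3.4% of all genes, 0 passed after adjustment, and the median log2 fold change was -0.64, against 0.013 over all genes. *Hsph1*, which encodes a nucleotide exchange factor of HSP70, measured 313, 246 and 272 CPM in M2626 to M2628 and 517, 412 and 367 CPM in M2629 to M2631 (-0.65 ± 0.16, SE). *Hsp90aa1*, the inducible HSP90 gene, measured 165, 185 and 207 CPM against 327, 247 and 262 CPM (-0.59 ± 0.16, SE). In both the groups did not overlap, which held for 6 of the 11 genes and for 11.5% of all genes tested. The strongly inducible HSP70 gene *Hspa1a* had overlapping groups, 54.2, 46.3 and 131 CPM against 217, 109 and 52.4 CPM, and M2629 was its highest library; it was named after its values were seen. *Hspa1a* and *Hspa1b* are near-identical copies, so that their reads cannot be told apart with certainty.

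Other cell type markers gave these ranges. *Acta2* and *Myh11* of smooth muscle lay between 14208 and 18314 CPM and between 7739 and 12120 CPM. *Pdgfra* and *Dcn* of fibroblasts lay between 100.9 and 207 CPM and between 1034 and 1842 CPM. The 8 striated muscle markers summed to 36.4, 117 and 8.47 CPM in M2626 to M2628 and to 7.80, 18.9 and 4.47 CPM in M2629 to M2631, so that the sums of the groups overlapped. Of these 8, 6 were higher in miRNA-26b-/- mice at an unadjusted p under 0.05 (edgeR), against 3.4% of all genes, and 0 passed after adjustment. The groups did not overlap for 2 of them, *Tnnt3* (0 to 6.74 CPM) and *Mylpf* (0 to 6.17 CPM), against 11.5% of all genes tested. *Mylpf* was at 0 CPM in M2629, M2630 and M2631, so that these levels were near the floor. *Hba-a1* and *Hba-a2* of erythroid cells lay between 16.4 and 200.2 CPM and between 15.1 and 144 CPM. *Cd3e* of lymphocytes was at 0 in all 6 libraries and *Cd3d* in all but M2630.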
